A study of Mus musculus with 6 samples.

Results

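Mitochondrial ribosomal protein genes encode the proteins of the mitoribosome, the ribosome that translates the messages of the mitochondrial genome. The members were the protein-coding genes of chromosomes 1 to 19 whose symbol is Mrpl or Mrps followed by a digit, and there were 78 of them among 20722 protein-coding genes. Of these, 49 carry the Mrpl prefix of the large subunit and 29 the Mrps prefix of the small subunit. The subunit classes used here are read from the prefix alone, and the place of each protein in the ribosome was not checked. The chromatin data come from PGCLCs, primordial germ cell-like cells of the mouse, a culture model of the cells in the embryo that give rise to the germ line. All cells were of strain 129Sv/J, untreated, at day 2, and carried Tex10 fused at its C-terminal end to an HA tag. The series has 2 samples with an antibody to the HA tag (HA-Tex10), 2 with an antibody to H3K4me3, histone H3 trimethylated at lysine 4, and 2 input samples, which are not used here. Whether the 2 samples of a group came from separate cultures, and whether the tagged line is a clone, is not given in the labels.

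The mitoribosome is made in the mitochondrion from proteins imported from the cytosol and from ribosomal RNA encoded by mitochondrial DNA, so that its protein genes are all nuclear. Some of its proteins have relatives in bacterial ribosomes and others were added in the mitochondrial lineage. Members with a bacterial relative were read here from a fixed list, whose entries were not checked, and the other members are called mitochondrial additions. The mitoribosome makes core subunits of the respiratory chain and is needed in every cell that respires. H3K4me3 is a mark of active or poised promoters, and Tex10 is a nuclear protein known from complexes that act in ribosome maturation and in pluripotent cells.

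For each antibody the intervals were read from a single deposited list without heights or p-values. Nothing here therefore has a replicate error, no test compares samples, and the depth is unknown. On chromosomes 1 to 19 the lists held 4129 HA-Tex10 and 27954 H3K4me3 intervals. A gene was called marked or bound if an H3K4me3 or HA-Tex10 interval came within 1 kb of any transcription start site (TSS) of its protein-coding transcripts. Intervals given with a percentage are 95% Wilson intervals, which cover the counting of genes only. H3K4me3 lay at 5 of 7 germ cell genes (Prdm1, Prdm14, Tfap2c, Dnd1 and Kit, but not Dppa3 or Nanos3). It lay at 3 of 3 pluripotency genes and at 1 of 10 genes of other tissues (Myod1), where 62.6% of all protein-coding genes were marked. The germ cell count is near that share, so these counts do not establish germ cell identity.

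All 78 mitochondrial ribosomal protein genes were marked by H3K4me3 (100%, 95.3 to 100%), where 62.6% of all protein-coding genes were. HA-Tex10 was present at 9 of the 78 genes (11.5%, 6.19 to 20.5%). The bound genes were Mrpl2, Mrpl4, Mrpl34, Mrpl38, Mrpl45 and Mrpl51 of the Mrpl class and Mrps18b, Mrps33 and Mrps36 of the Mrps class. Over all protein-coding genes 9.13% were bound, and over the 12966 marked genes 14.3% were. The members' share thus lay near the background, with both values inside its interval.

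The stretches of DNA under HA-Tex10 intervals at 5 of the 9 bound genes are shown here. They are shown for what differs between these promoters: where the interval lies relative to the start of the gene, and which short motifs it holds. The sequences are those of the C57BL/6J reference (RefSeq, GRCm38.p6), not read from the cells, leave out annotated exons of protein-coding transcripts and are cut to at most 300 bases. They run 5′ to 3′ on the strand of the gene. Capitals mark matches to any of 8 motifs searched on both strands, each named for the factor or the element it is known for. The NRF1 motif was searched as GCATGCGC, that of the ETS family as CCGGAA and that of YY1 as AAGATGG. The E-box was searched as CACGTG, the cyclic AMP response element (CRE) as TGACGTCA and the GC box as GGGCGG. The TATA box was searched as TATAAA and the CCAAT box by the letters of its name. Each motif was searched by these exact letters, so variant forms of it were not counted here or below. A match is a description of the letters and not of a bound factor. The Mrpl2 stretch lies at chr17:46646023-46646228 on the plus strand, the Mrpl38 stretch at chr11:116138927-116139029 on the minus strand, and the Mrpl45 stretch at chr11:97315404-97315703 on the plus strand. These 3 lie upstream of the 5′-most TSS. The Mrps18b stretch, at chr17:35916649-35916948 on the minus strand, runs from -559 to -260 bp of the 5′-most TSS, inside an intron of the neighbouring gene Ppp1r10. The Mrpl4 stretch, at chr9:21002998-21003083 on the plus strand, is intronic and begins 260 bp downstream of it.
Mrpl2: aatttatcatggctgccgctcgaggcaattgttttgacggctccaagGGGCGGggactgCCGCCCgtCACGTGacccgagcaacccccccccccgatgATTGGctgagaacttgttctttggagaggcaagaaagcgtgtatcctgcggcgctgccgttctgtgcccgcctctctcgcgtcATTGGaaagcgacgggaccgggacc
Mrpl38: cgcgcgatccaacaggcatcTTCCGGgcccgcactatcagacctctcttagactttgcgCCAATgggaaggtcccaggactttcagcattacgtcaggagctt
Mrpl45: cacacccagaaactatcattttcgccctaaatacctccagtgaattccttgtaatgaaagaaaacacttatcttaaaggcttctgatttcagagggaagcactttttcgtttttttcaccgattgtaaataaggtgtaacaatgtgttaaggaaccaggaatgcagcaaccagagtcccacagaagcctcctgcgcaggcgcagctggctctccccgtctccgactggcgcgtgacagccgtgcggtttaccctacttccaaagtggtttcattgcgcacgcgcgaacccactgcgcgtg
Mrps18b: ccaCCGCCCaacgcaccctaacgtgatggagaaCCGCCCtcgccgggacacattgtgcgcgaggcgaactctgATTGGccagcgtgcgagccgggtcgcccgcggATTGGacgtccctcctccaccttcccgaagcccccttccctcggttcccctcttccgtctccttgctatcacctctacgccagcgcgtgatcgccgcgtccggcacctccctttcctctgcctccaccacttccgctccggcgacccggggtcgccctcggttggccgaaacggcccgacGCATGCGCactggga
Mrpl4: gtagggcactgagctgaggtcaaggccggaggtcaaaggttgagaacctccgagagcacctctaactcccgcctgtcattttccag
In these 5 stretches, Mrpl2 held an E-box, GC boxes and CCAAT boxes, Mrpl38 an ETS motif and a CCAAT box, and Mrps18b an NRF1 motif, GC boxes and CCAAT boxes. The Mrpl45 and Mrpl4 stretches held none of the 8 in the exact letters searched, which does not exclude variant forms. Of stretches not shown, that of Mrpl51 held a GC box and a CCAAT box, that of Mrps33 GC boxes and that of Mrps36 none.

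Among the large subunit genes, the interval at Mrpl2, which encodes a core protein near the peptidyl transferase centre, was 460 bp wide (chr17:46645984-46646443) and ran from -245 to 214 bp of the 5′-most TSS. It lay wholly within H3K4me3 and also contained a TSS of Klc4, a kinesin light chain gene whose start lies 207 bp away on the other strand. At Mrpl4, whose protein reaches into the exit tunnel of the large subunit, the interval was 306 bp wide (chr9:21002845-21003150). It lay from 107 to 412 bp downstream of the 5′-most TSS, contained a second annotated TSS and was wholly within H3K4me3. At Mrpl45, which encodes a protein near the tunnel exit that faces the inner membrane, the interval was 559 bp wide (chr11:97315391-97315949) and ran from -325 to 233 bp of the TSS. The H3K4me3 interval of Mrpl45 began 83 bp downstream of the TSS, so that 151 bp (27%) of the HA-Tex10 interval lay within it. As a share of the interval this was the lowest overlap of the 10 intervals at members.

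Mrpl38, a mitochondrial addition in the central protuberance, was the member with 2 HA-Tex10 intervals. The wider was 103 bp long and lay at -161 to -59 bp of the TSS. The other was 11 bp long (chr11:116138603-116138613), 255 bp downstream, and 0.923% of the HA-Tex10 intervals at marked genes were narrower. Mrpl34 lies on chromosome 8, where 41.2% of marked genes were bound. Its interval was 441 bp wide and ran from -337 to 103 bp of the TSS, also in reach of Abhd8, and a further interval of 227 bp lay at -1271 to -1045 bp, outside the window. Without chromosome 8, 8 of 76 members (10.5%) and 12.7% of marked genes were bound. At Mrpl51, a mitochondrial addition, the interval was 400 bp wide (chr6:125191664-125192063) and ran from -501 to -102 bp of the TSS. It contained a TSS of Ncapd2, a condensin subunit gene on the other strand, so that Ncapd2 was the nearest gene by protein-coding TSS. The annotated Mrpl51 gene begins at 125191801, ahead of its protein-coding TSS, and this start also lay inside the interval.

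Among the small subunit genes, Mrps18b, one of 3 relatives of bacterial S18, had the widest HA-Tex10 interval of the members. It was 946 bp wide (chr17:35916299-35917244), wider than 99.7% of the HA-Tex10 intervals at marked genes, and 725 bp of it lay within H3K4me3. It contained a TSS of Mrps18b and a TSS of Ppp1r10, which encodes a regulator of protein phosphatase 1 and starts 177 bp away on the other strand. It also bridged the gap between the H3K4me3 intervals of the pair, of which the first ended at -507 bp and the next began at -285 bp of the Mrps18b TSS. At Mrps33, a mitochondrial addition to the small subunit, the interval was 258 bp wide (chr6:39810754-39811011) and ran from -23 to 234 bp of the 5′-most TSS. At Mrps36 it was 204 bp wide (chr13:100744454-100744657) and began 2 bp downstream of the 5′-most TSS. The product of Mrps36, named as a mitoribosomal protein, is now known as a component of the 2-oxoglutarate dehydrogenase complex. Without Mrps36, 8 of 77 members were bound (10.4%, 5.36 to 19.2%).

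**Figure D1:**
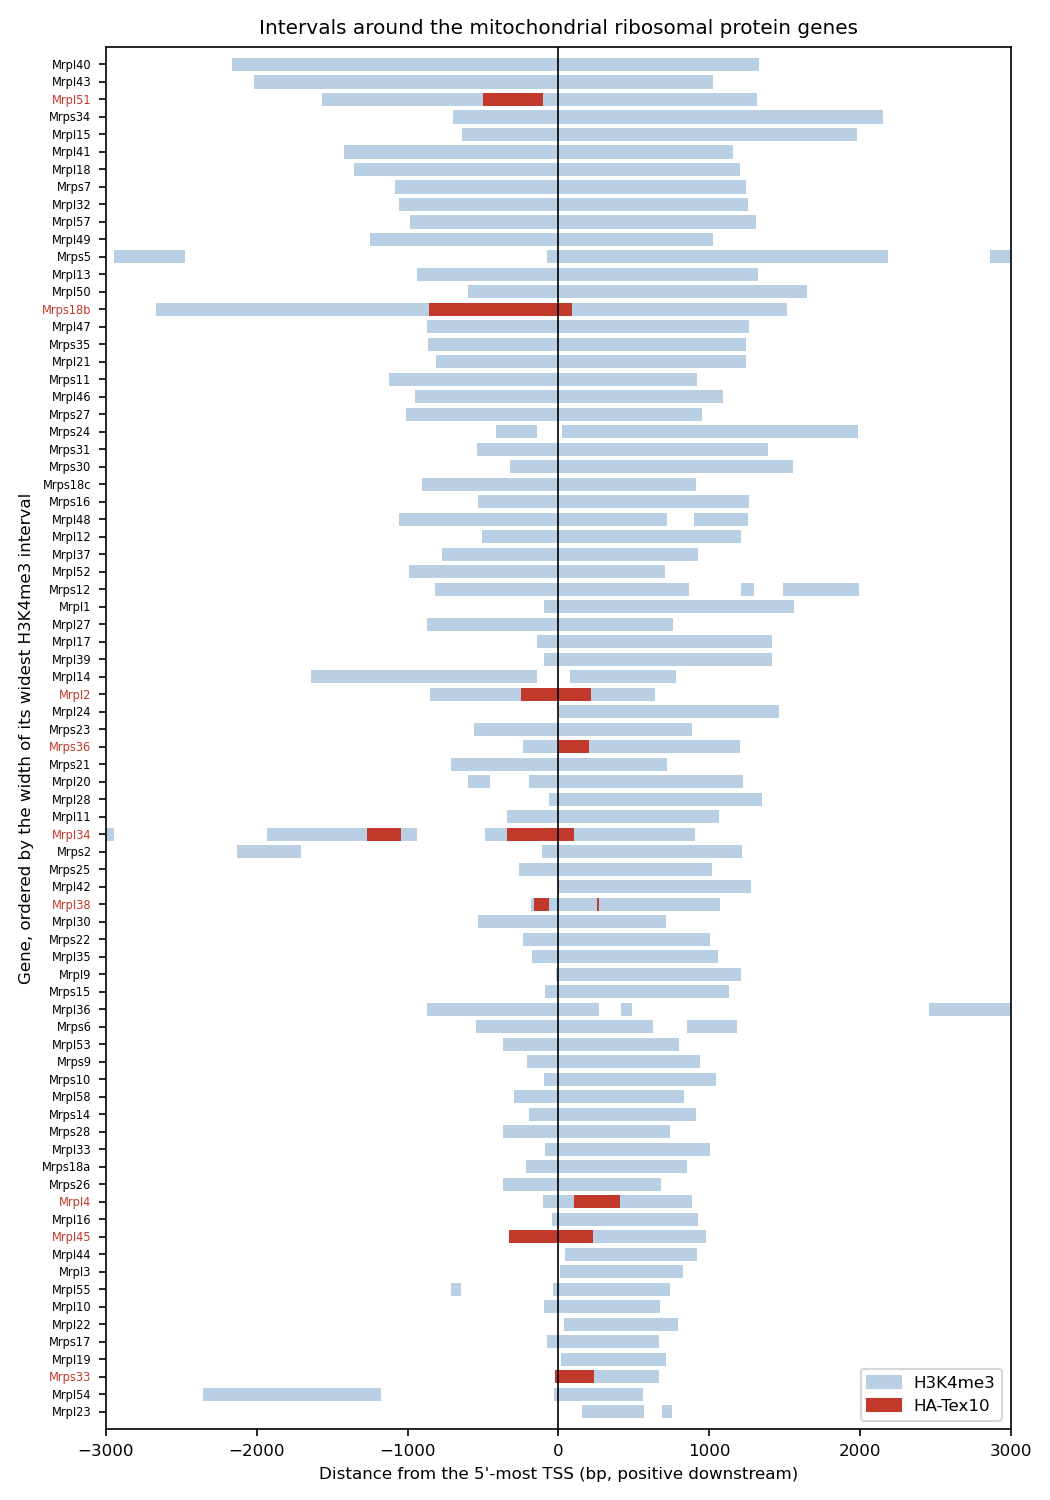
H3K4me3 intervals (light blue) and HA-Tex10 intervals (red) within 3 kb of the 5′-most TSS of each of the 78 genes, with distance in bp on the x axis and genes on the y axis ordered by their widest H3K4me3 interval. H3K4me3 covered the position 250 bp downstream in all 78 genes, and the names of the 9 bound genes are in red.

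Over the 10 HA-Tex10 intervals at members, all overlapped H3K4me3 by at least 1 bp and 7 lay wholly within it. A protein-coding TSS of a member lay inside 7 of the 10. Relative to the nearest TSS of the member, the centres lay between -382.5 bp (Mrps18b) and 260 bp (Mrpl38), with 6 upstream and 4 downstream and a median of -30.8 bp. Over all 2068 pairs of a marked gene and an HA-Tex10 interval the median was -41.5 bp. The intervals at members had a median width of 353.0 bp (11 to 946 bp), and the 1734 intervals at all marked genes one of 234.5 bp. Of the 10 intervals 0 were made up mainly of 32-base words with further copies elsewhere in the genome, against 122 of the 1734 intervals at marked genes (7.04%) and 1577 of all 4129. For these counts intervals under 100 bp, such as that of 11 bp at Mrpl38, were widened to 100 bp.

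Among the 69 genes without an interval within 1 kb, the nearest HA-Tex10 interval lay 7381 bp away, at Mrpl35, and the median distance was 155900 bp, against 144200 bp for marked genes without one. The count of 9 therefore stayed the same when the window was widened to 5 kb, and the bound share of all genes marked at 1 kb was 14.3% at 1 kb and 16.8% at 5 kb. Within 10 kb, 11 members (14.1%) and 19.5% of marked genes had an interval, and within 100 kb 34 members (43.6%) and 49.6% did.

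H3K4me3 width is the quantity that the list gives for each promoter, and the widest interval within 1 kb of a TSS was taken for each gene. Over the 78 genes it ranged from 407 to 3497 bp, with a median of 1444.5 bp and quartiles of 1141 and 2026 bp. Over all marked genes the median was 1360.0 bp and the quartiles were 879.0 and 1981 bp. The members' median exceeded the other by 84.5 bp, and its 95% interval from order statistics (-106 to 334 bp for the difference) includes 0. A mark of 2 kb or more was found at 20 members (25.6%) and 24.4% of marked genes. Mrpl40 and Mrpl43 had 3 kb or more (2.56%, 0.706 to 8.88%), against 6.59% of marked genes, a value inside that interval. Mrpl23 was the member with under 500 bp (1.28%, 0.227 to 6.91%), against 9.20% of marked genes, and this difference was not tested.

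The 5 widest marks were those of Mrpl40 (3497 bp), Mrpl43 (3042 bp), Mrpl51 (2882 bp), Mrps34 (2854 bp) and Mrpl15 (2619 bp). Mrpl15 has a bacterial relative, and the others are mitochondrial additions. The 5 narrowest were those of Mrpl23 (407 bp), Mrpl54 (589 bp), Mrps33 (652 bp), Mrpl19 (700 bp) and Mrps17 (743 bp). Among them Mrpl23, which sits at the tunnel exit, Mrpl19 and Mrps17 have bacterial relatives. Mrpl51 and Mrps33 were bound, so HA-Tex10 was found at members near both ends of the range.

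The mark lay over and just after the start of these genes. The 5′-most TSS lay inside an H3K4me3 interval in 68 of the 78 genes (87.2%), against 74.4% of marked genes. In 9 of the other 10 the widest mark began downstream, between 4 bp (Mrpl24) and 160 bp (Mrpl23) from the TSS. In the remaining gene, Mrpl14, a mark of 1504 bp ended at -138 bp and a further mark of 702 bp began 77 bp downstream. At 250 bp downstream H3K4me3 covered 78 of 78 members and 85.5% of marked genes, and at 1500 bp downstream 9 members (11.5%) and 22.3% of marked genes. On the upstream side, at -500 bp, it covered 36 members (46.2%) and 37.8% of marked genes. These positions count from the 5′-most TSS, whereas a gene was called marked at any of its TSS. With the 5′-most TSS alone, 59.7% of all protein-coding genes were marked in place of 62.6%, and 100% of the members. How far this bears on the differences was not tested. A single H3K4me3 interval was in reach of 66 members, and 12 had 2 or more, with the highest number, 4, at Mrpl48.

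**Figure D2:**
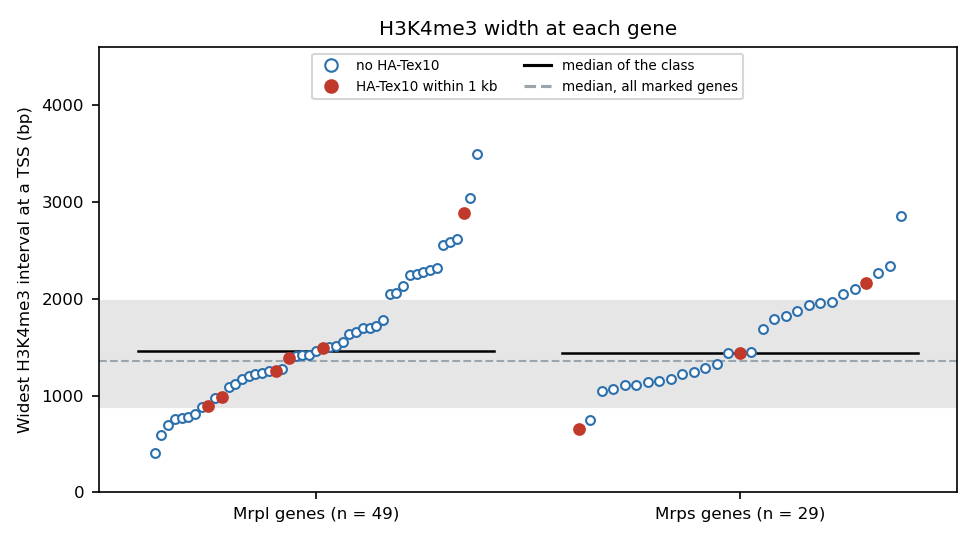
Width in bp of the widest H3K4me3 interval at each gene, for 49 Mrpl and 29 Mrps genes sorted by width, with genes bound by HA-Tex10 in red. The class medians of 1463 and 1443 bp (black lines) lie close to the median of 1360.0 bp over all marked genes (dashed line), and the grey band spans the quartiles of all marked genes.

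Because wide marks carry HA-Tex10 more often, the members were read against marked genes of like width. The marked genes were put into 5 classes of nearly equal number, in which the bound share was 5.36, 10.2, 14.4, 17.2 and 24.4% from the narrowest to the widest. With the members' numbers in each class, these shares make 12.1 bound genes due (15.5%), and 9 were found. The difference was -3.92 percentage points, and 15.5% lies inside the members' interval of 6.19 to 20.5%. No departure from genes of like width was detectable with 78 genes.

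Within the classes, the bound members did not follow the order of the background. In the narrowest class (up to 765 bp) 1 of 6 members was bound (Mrps33), in the next 2 of 15 (Mrpl4 and Mrpl45) and in the middle class 4 of 24 (Mrpl2, Mrpl34, Mrpl38 and Mrps36). In the class from 1565 to 2158 bp 0 of 18 members were bound (0 to 17.6%), and in the widest 2 of 15 (Mrpl51 and Mrps18b). Mrps18b fell in the widest class through a mark of 2165 bp that ended at -507 bp of its TSS. The mark over its 5′-most TSS was 1801 bp wide, which lies in the range from 1565 to 2158 bp. The interval of each class included the background share. The bound members had a median width of 1393 bp and the others one of 1463 bp, whereas over all marked genes the bound had 1756 bp and the others 1294 bp. The difference in direction was not tested.

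**Figure D3:**
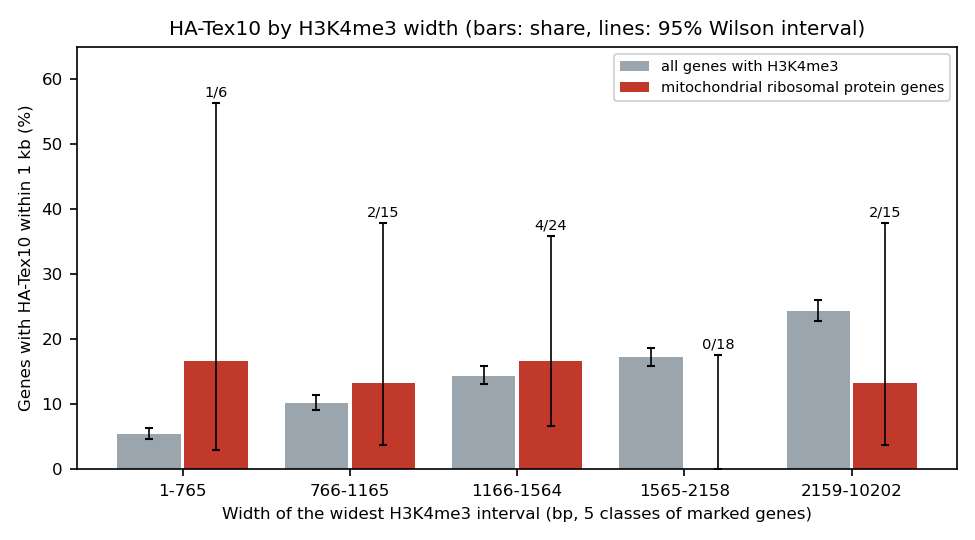
Share of genes (percent, y axis) bound by HA-Tex10, by width class of H3K4me3 (bp, x axis), for all marked genes (grey) and members (red), with 95% Wilson intervals and the members' counts above the bars. The grey bars rise from 5.36% to 24.4%, and the members' counts run from 1 of 6 to 2 of 15 with wide intervals.

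The classes within the mitoribosome did not separate beyond counting error. HA-Tex10 was at 6 of 49 Mrpl genes (12.2%, 5.73 to 24.2%) and 3 of 29 Mrps genes (10.3%, 3.58 to 26.4%). Their widths had medians of 1463 and 1443 bp. Of the 47 members with a bacterial relative by the fixed list 4 were bound (8.51%, 3.36 to 19.9%), namely Mrpl2, Mrpl4, Mrpl34 and Mrps18b. Of the 31 mitochondrial additions 5 were (16.1%, 7.09 to 32.6%), namely Mrpl38, Mrpl45, Mrpl51, Mrps33 and Mrps36, and without Mrps36 4 of 30 were (13.3%, 5.31 to 29.7%). The intervals of these classes overlap, and the marks of the former had a median width of 1416 bp and those of the latter one of 1694 bp.

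Many of these genes start head to head with a neighbour. A protein-coding TSS lay on the other strand within 1 kb upstream of the 5′-most TSS in 25 of the 78 members (32.1%), against 13.8% of marked genes. The median distance between the starts was 75 bp, and the closest was 26 bp, at Mrpl54 and Apba3. Some partners also act in mitochondria, such as Twnk, the helicase of mitochondrial DNA, beside Mrpl43, Sars2, the mitochondrial seryl-tRNA synthetase, beside Mrps12, and Ndufs6, a complex I subunit, beside Mrpl36. Others were Fau, which encodes a cytosolic ribosomal protein, beside Mrpl49, the chaperonin gene Tcp1 beside Mrpl18 and the proteasome gene Psma2 beside Mrpl32. Marks at head-to-head members had a median width of 2165 bp and those at the other 53 members one of 1277 bp. The same held over all marked genes, with 1928 and 1271 bp.

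Of the 25 head-to-head members 3 were bound (12%, 4.17 to 30%), which were Mrpl2, Mrpl51 and Mrps18b. Of the 53 other members 6 were (11.3%, 5.29 to 22.6%). Over all marked genes the shares were 25% with a head-to-head neighbour and 12.6% without. In each of the 3 bound pairs the HA-Tex10 interval contained a TSS of the partner, so that these intervals cannot be assigned to the member alone. At Mrpl2 and Mrps18b the interval also contained a protein-coding TSS of the member. At Mrpl51 the partner Ncapd2 was nearer by protein-coding TSS, though the annotated start of the Mrpl51 gene lay inside the interval too.

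Mrpl46 and Mrps11 are head-to-head partners of each other, 1 gene of each subunit, and share an H3K4me3 interval of 2046 bp (chr7:78781994-78784039). They had no HA-Tex10 interval within 877112 bp. The annotated Mrpl46 gene extends to 78783531, past the Mrps11 start at 78783119, so the annotated genes overlap. The 29 bases between their protein-coding start sites, at chr7:78783090-78783118 on the plus strand, are shown because so little DNA separates these starts, and they hold none of the 8 motifs.
Mrps11 and Mrpl46: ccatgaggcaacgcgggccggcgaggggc

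The promoters of the members, from 250 bases before to 50 after the 5′-most TSS, had a median GC content of 57.8% (quartiles 52.2 and 63.9%), against 60.7% over marked genes. The ratio of observed to expected CpG had a median of 0.821 against 0.75. Factors of the ETS family, NRF1 and YY1 are known regulators of nuclear genes for mitochondrial proteins. The ETS motif was in 42 of the 78 promoters (53.8%, 42.9 to 64.5%), against 26.1% of marked promoters and 18.1% of all promoters. The YY1 motif was in 14 (17.9%, 11 to 27.9%) against 6.75% of marked and 6.26% of all promoters. The NRF1 motif was in 8 (10.3%, 5.29 to 19%) against 5.05 and 3.47%, and its genes were Mrpl9, Mrpl10, Mrpl17, Mrpl22, Mrpl32, Mrpl33, Mrps18b and Mrps28.

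The other motifs were at or below the share of marked promoters, except the TATA box. The GC box was in 38 promoters (48.7%) against 63.3%, the CCAAT box in 27 (34.6%) against 38.4% and the E-box in 4 (5.13%) against 9.96%. The CRE was in 2 (2.56%) against 3.32% and the TATA box in 7 (8.97%) against 6.79%. All promoters held these motifs in 44.5, 38.6, 7.78, 2.45 and 12.7% of cases, in the same order. None of the 8 motifs contains another.

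Of the 9 bound members 7 had an ETS motif in this window (Mrpl2, Mrpl4, Mrpl34, Mrpl38, Mrpl51, Mrps18b and Mrps33) and 7 a GC box, against 35 (50.7%) and 31 (44.9%) of the 69 others. Mrps18b was the bound member with an NRF1 motif, and 7 of the others had one. Over all marked genes the ETS motif was in 31.9% of bound and 25.1% of other promoters, and the GC box in 65.3 and 62.9%. With 9 bound members these differences were not tested. The bound members had a median GC content of 57.7% and the others one of 58.0%.

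**Figure D4:**
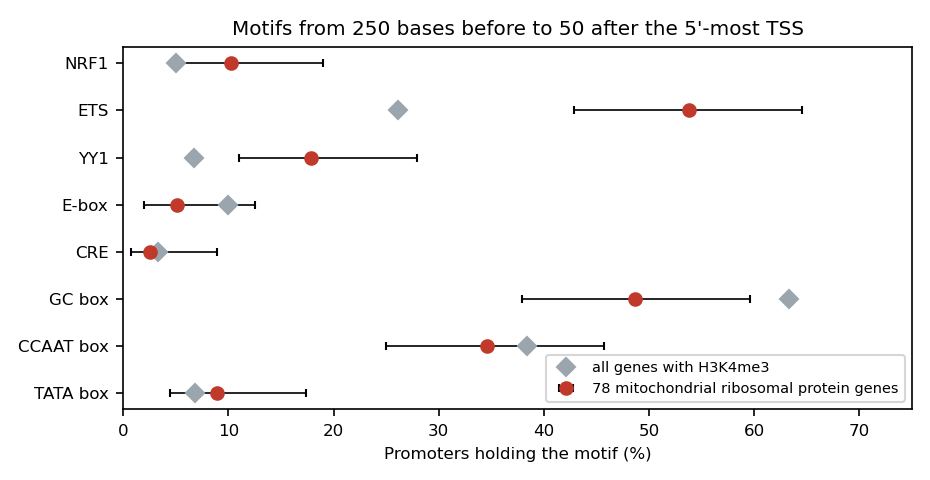
Share of promoters (percent, x axis) that hold each of 8 motifs, for the 78 members (red, with 95% Wilson intervals) and for all marked genes (grey diamonds). The members lie above marked genes for ETS (53.8 against 26.1%), YY1 and NRF1 and below them for the GC box.

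The other genes of mitochondrial translation were all marked too, 55 of 55 over 4 lists, and 9 of them were bound (16.4%, 8.86 to 28.3%), where 8.11 were due from their widths. Of 5 mitoribosomal protein genes with other symbols (Dap3, Ptcd3, Chchd1, Aurkaip1 and Gadd45gip1) 0 were bound. Of 13 translation factor genes 2 were, Mtif2 (initiation) with an interval of 50 bp and Gfm2 (ribosome recycling) with one of 220 bp that also reached Nsa2. Of 17 mitochondrial tRNA synthetase genes 4 were (23.5%, 9.56 to 47.3%), among them Cars2 (501 bp), Ears2 (119 bp, also in reach of Ubfd1) and Lars2 (341 bp). Of 20 assembly genes 3 were (15%), namely Mtg1, a GTPase, Mpv17l2 and the helicase gene Ddx28, whose interval was also in reach of Dus2. Cars2, Mpv17l2 and Ddx28 lie on chromosome 8, whose high bound share is given above.

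Set beside the members, the cytosolic ribosomal protein genes and the subunits of oxidative phosphorylation gave these values. Of 88 genes with cytosolic ribosomal protein symbols, which include copies, 80 were marked, with a median width of 2574.5 bp, and 32 of these were bound (40.0%, 30 to 51.0%), where 17.7 were due from width. Of 83 oxidative phosphorylation genes 77 were marked, with a median width of 1491 bp, and 14 were bound (18.2%, 11.2 to 28.2%), where 12.3 were due. The members' interval (6.19 to 20.5%) overlaps that of oxidative phosphorylation genes and lies below that of cytosolic ribosomal protein genes. The difference was not tested.

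**Figure D5:**
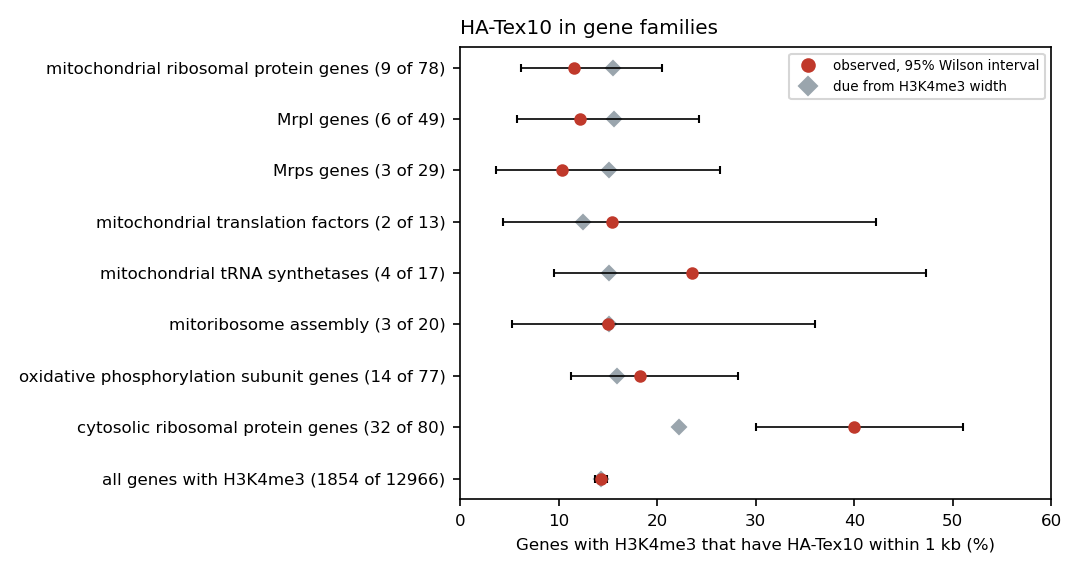
Share of marked genes bound by HA-Tex10 (percent, x axis; red points with 95% Wilson intervals) and the share due from H3K4me3 width (grey diamonds) for the members, their classes and related families, with bound and marked counts in the labels. The due share lies inside the interval of every family drawn except the cytosolic ribosomal protein genes, at 40.0% against 22.2%.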

How the data were processed

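The data are ChIP-seq interval lists of the whole series, 1 per antibody, and a further list of the HA-Tex10 intervals that meet H3K4me3. Per the deposited files they give start and end in bp, with empty score and strand columns. The submitters' processing notes name Bowtie2 2.3.4.3, SAMtools 1.9, MACS2 2.1.2, HOMER and build mm10, without roles. How replicates were combined, the thresholds and the use of the input are not given in the sources used here, and the depth is unknown. Chromatin was cut enzymatically, per the labels' protocols.

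Coordinates count from 1 on GRCm38 (mm10), and 0 intervals ended past a chromosome end. Genes and TSS came from GENCODE M21 and sequences from RefSeq GRCm38.p6, read with pysam 0.24.0. Wilson intervals came from scipy 1.17.1. The share due from width weights the bound share of each width class by the members' numbers in it. Repeated intervals were those with more than 50% of their words of 32 bases found again elsewhere in the genome. Intervals under 100 bp were replaced by 100 bp around their centre for this. Interval matching and the weighting were tested on simulated data.

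Named were the bound members, the 5 widest and 5 narrowest marks, any member without H3K4me3 (there were 0) and bound genes of the pathway lists, of which 1 is not reported here. Further genes named as examples (head-to-head partners, NRF1 promoters, TSS outside the mark) were chosen after their values were seen. The members, lists and motifs were chosen with earlier results of these data known. The alternatives were other TSS windows and definitions, stricter or repeat-free lists, the further list, chromosome 8 left out, nearest-gene assignment and other width measures.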

Additional observations from a re-analysis of the deposited data

How the results depend on the processing

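Of 60 values under alternatives, 54 stayed within the 95% interval of the reported value with its sign. Some of them could not move, namely the bound share and the Mrpl minus Mrps share under 3 kinds of alternative. The nearest interval of an unbound member lay 7381 bp away, beyond the wider TSS windows. All 10 intervals at members overlapped H3K4me3 and 0 were mainly repeated, so the further and the repeat-free list kept all of them. The bound share ranged from 8.97 to 11.5%. With H3K4me3 intervals wider than the median, 94.9% of the members were marked and the width difference was -61.0 bp in place of 84.5 bp, and with intervals within 1 kb merged it was -4.50 bp. With HA-Tex10 intervals wider than the median, the difference from genes of like width was 0.65 percentage points in place of -3.92, with 8.97% of members bound, while it lay from -6.39 to -2.92 in the other alternatives. The Mrpl share minus the Mrps share, 1.9 percentage points, was -0.30 without chromosome 8 and -0.14 with each interval counted for the nearest gene. These changes of sign are of differences that did not exceed counting error, and the cause was not tested. No paired analysis was possible because the deposited lists do not keep the replicates of an antibody apart, so that none could be left out either. With the depth unknown, the 69 other members count as not detected, not as free of Tex10.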
